A study of Mus musculus with 768 samples.

Results

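Intermediate filament genes encode the proteins of the most stable part of the cytoskeleton, and 8 of the 25700 genes in the count table were followed here across Schwann cells (SCs) of the adult mouse sciatic nerve: Gfap, Vim, Nes, Synm, Prph, Nefl, Nefm and Lmna. The set is defined by gene names and its rule uses no measured value, and the Ensembl identifier of each was found in the table. Cytoplasmic intermediate filaments form by pairing of rod-shaped proteins, and the partners available in a cell set the make-up of the filament. Vim (vimentin) and Gfap (glial fibrillary acidic protein) can assemble with themselves. Nes (nestin) and Synm (synemin) are large proteins that need a partner such as vimentin to enter filaments. Prph (peripherin), Nefl and Nefm (the light and medium neurofilament proteins) build the filaments of neurons, and Lmna (lamins A and C) belongs to the lamina that lines the nucleus. In the peripheral nerve, GFAP is widely used as a marker of non-myelinating SCs, and SCs express filament proteins such as vimentin and nestin in some stages of their development and after injury.

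The cells came from sciatic nerves at postnatal day 60 of mice of both sexes on the C57bl/6J background that carried a Cre transgene active in the SC lineage, the reporter ReYFP, which is switched on by Cre, and a ubiquitous βAct-DsRed reporter. Every cell analysed shared these alleles, there was no untreated or wild-type comparison group, and the sort for eYFP limits the cells to those in which this transgene had been active. The nerves of several mice were pooled for each of 2 plates of 384 cells, so the replicate is the plate (n = 2) and single mice cannot be told apart. The libraries were prepared by Smart-Seq2, which reads full-length cDNA without molecular identifiers. The labels give 1 group of cells, so myelinating (mSC) and non-myelinating, Remak (nm(R)SC) cells had to be recognised from their transcripts. Clustering was done without 97 filament, linker and lamina genes, the 8 members included, and clusters were named mSC-like or Remak-like (the nm(R)SC class) from 19 marker genes. Plate 1 gave 151 mSC-like and 174 Remak-like cells, and plate 2 gave 73 and 248. The 28 cells of a further cluster, with Top2a and Hmgb2 among its leading genes, were given no name. They were left out of the comparison of these 97 genes between classes. The SC markers Sox10, S100b, Erbb3 and Egfl8 each stood at 10 or more CPM (reads scaled to a common total) in both classes on both plates.

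The plates differed in depth. Median values per kept cell were 158689 reads and 3442 genes on plate 1 and 452484 reads and 2295 genes on plate 2, so the deeper plate showed fewer genes per cell. Values are therefore given for each plate. The intervals given below cover counting error only. Those of read ratios treat each read as independent, although reads are not molecules and many can come from 1 cell. They are therefore narrower than the real uncertainty.

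The members fell into distinct sets. Vim and Lmna were read in nearly every cell of both classes, Gfap and Synm were read almost only in Remak-like cells, Nes was read in a part of the cells of both classes, and the neuronal genes Prph, Nefl and Nefm were at or near 0. Of the 5 members with enough reads for a test between classes, 2 passed (Gfap and Synm, both higher in Remak-like cells). Among the 13271 genes tested by the same edgeR fit, 2.98% were called, 1.42% as higher in Remak-like cells and 1.57% as higher in mSC-like cells. Members, like other genes, passed the filter for low counts through either class, so a member read in 1 class only could pass it through that class. This was so for both called members. Gfap had 7 and 1 and Synm 24 and 1 mSC-like reads, and they met the filter through their Remak-like sums. Their calls, and the median over members, therefore include genes admitted through the class where they are high. The median log2 ratio of mSC-like over Remak-like was -1.14 over the 5 members tested and -0.14 over all genes tested.

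**Figure D1:**
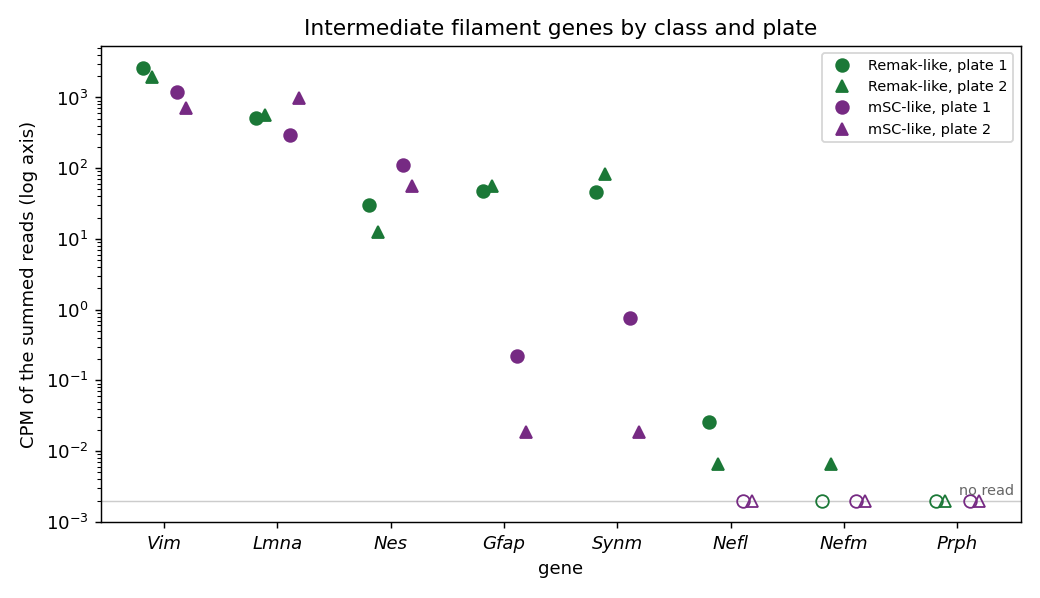
Level of each member as CPM of the reads summed over the cells of 1 class on 1 plate, on a log axis; open symbols mark sums without a read. Gfap and Synm stand between 46.4 and 83.5 CPM in the Remak-like sums and below 1 CPM in the mSC-like sums, Vim and Lmna are high in all sums, and the 3 neuronal genes are at or near the floor.

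The promoters of the called members Gfap and Synm and of Vim and Nes are shown so that their base composition can be seen beside their levels. They are the 120 bases that end just before the transcription start in RefSeq, build GRCm38.p6, 5′ to 3′ on the strand of the gene, which for Gfap is chr11:102897201-102897320 (minus strand), for Synm chr7:67759743-67759862 (minus), for Vim chr2:13574191-13574310 (plus) and for Nes chr3:87970973-87971092 (plus). Capitals mark matches to 1 of 5 short motifs, each searched on both strands. The first is the TATA box, spelled TATAAA here, and the next is the box named after its own letters, CCAAT. The others are the GC box with the letters GGGCGG, the AP-1 site with the letters TGANTCA, and a SOX-type site with the letters ACAAAG. In these promoters no match of 1 motif overlapped that of another.
Gfap: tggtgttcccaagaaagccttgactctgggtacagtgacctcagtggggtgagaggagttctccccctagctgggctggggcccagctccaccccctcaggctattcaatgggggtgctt
Synm: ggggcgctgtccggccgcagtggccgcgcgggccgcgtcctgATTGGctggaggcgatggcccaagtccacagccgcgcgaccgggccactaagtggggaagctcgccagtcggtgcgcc
Vim: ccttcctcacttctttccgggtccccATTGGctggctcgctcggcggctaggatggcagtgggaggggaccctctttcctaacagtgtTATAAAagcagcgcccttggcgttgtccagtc
Nes: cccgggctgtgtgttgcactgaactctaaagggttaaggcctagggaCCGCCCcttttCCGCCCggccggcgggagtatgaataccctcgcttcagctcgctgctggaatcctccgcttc

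In the 250 bases before the start, Synm had 1 CCAAT match (on the minus strand of the printed sequence, at bases -78 to -74), Vim had a pair of CCAAT matches and the TATA match at -32 to -27, and Nes had a pair of GC box matches. Gfap had no match to any of the 5 motifs, and none of the 4 promoters held the AP-1 or SOX letters, which says only that these letters are not in this window. Of the 32851 promoters in the table, 12.4% held the TATA letters in the same window, 33.9% CCAAT, 32.7% the GC box, 6.75% the AP-1 letters and 16.5% the SOX letters. The Synm window had 70.0% G and C bases, against 55.6% for Gfap, 58.4% for Vim and 58.8% for Nes. The entries for Gfap, Vim and Nes start inside the longer gene of the annotation used for the counts, so each stands for 1 of the gene's starts.

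Gfap lies on chromosome 11 from 102887336 to 102900912 (minus strand; GRCm38, as all gene positions here). It had 1804 reads in the Remak-like cells of plate 1 and 8722 in those of plate 2, against 7 and 1 in the mSC-like cells. As CPM this was 47.2 and 56.7 CPM in Remak-like cells (mean 52.0 ± 6.71, SD, n = 2 plates) and 0.224 and 0.0184 CPM in mSC-like cells. The plates lay close together within Remak-like cells. The level in Remak-like cells was 211 times that in mSC-like cells on plate 1 (95% exact interval 102 to 526). On plate 2 a single mSC-like read left the ratio at 3079 with an interval from 552 to 1.22e+05. In the edgeR quasi-likelihood test on the 4 sums, the adjusted p for Gfap was 0.0195, with a fitted log2 ratio of -9.07 ± 1.51 (SE), whose size depends on the prior count because the mSC-like sums hold almost no reads. With a cell filter of 2500 genes in place of 1500 the adjusted p by edgeR was 0.105.

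Few Remak-like cells carried Gfap. After each cell was thinned to 100000 reads, 5 or more Gfap reads were present in 8 of 111 Remak-like cells of plate 1 (7.21%, 95% exact interval 3.16 to 13.7) and in 18 of 240 of plate 2 (7.5%, 4.5 to 11.6). In mSC-like cells it was 0 of 100 and 0 of 72, which allows shares of up to 3% and 4.17%. Without thinning, 22 of 174 Remak-like cells of plate 1 (12.6%) and 21 of 248 of plate 2 (8.47%) had any Gfap read, against 6 of 151 (3.97%) and 1 of 73 (1.37%) mSC-like cells. The Remak-like cells with a Gfap read had a median of 133 CPM on plate 1 and of 607 CPM on plate 2, and the highest cells reached 2954 and 2131 CPM. The class level therefore rested on a small number of cells: 7 cells held 90% of the Remak-like Gfap reads on plate 1 and 12 cells on plate 2, and the strongest cell held 36.1% and 18.6%. Of the 6 mSC-like cells of plate 1 with a Gfap read, 4 shared a well index with 1 of the 7 cells at 50 or more Gfap reads, as did 58.3% of all mSC-like cells of that plate.

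Synm lies on chromosome 7 from 67730160 to 67759742 (minus strand), and its exons overlap those of Ttc23 and Gm45102 on the other strand. It had 1775 and 12852 reads in Remak-like cells of plates 1 and 2, and 24 and 1 in mSC-like cells. As CPM this was 46.4 and 83.5 in Remak-like cells (mean 65.0 ± 26.2, SD, n = 2 plates) against 0.766 and 0.0184 in mSC-like cells. The Remak-like plates stood further apart than for Gfap. The ratio was 60.6 on plate 1 (95% exact interval 40.6 to 94.9) and 4537 on plate 2 (814 to 1.79e+05, from a single mSC-like read). The edgeR adjusted p was 0.0419 and the fitted log2 ratio was -8.15 ± 1.68 (SE). Synm did not pass in 6 of the 12 alternative settings, among them the fit without the plate as a block (edgeR adjusted p = 0.0509), so its call was near the limit. In those settings its fitted ratio stayed negative.

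Thinned to 100000 reads, 18 of 111 Remak-like cells of plate 1 (16.2%, 95% exact interval 9.90 to 24.4) and 24 of 240 of plate 2 (10%, 6.51 to 14.5) had 5 or more Synm reads, against 0 of 100 and 0 of 72 mSC-like cells. On plate 2 the strongest cell held 31.5% of the Synm reads of Remak-like cells and the 5 strongest held 74.5%, while on plate 1 they held 10% and 45.2%. Ttc23, the overlapping gene, had 7.64 CPM in the Synm cells of plate 1 and 15.2 CPM in the other Remak-like cells, and 61.8 and 10.4 CPM on plate 2. Reads of Synm and of these partners cannot be told apart here where their exons overlap, and the strand setting of the counting was not stated. A Ttc23 read was found in 7 of 18 Synm cells and 17 of 93 others on plate 1, and in 5 of 24 and 11 of 216 on plate 2. Gm45102 was read in 2 Synm cells of each plate and in 0 of the others. The part of the overlap in the Synm values was not tested.

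Few cells held both Gfap and Synm, and each gene was read in few cells. Of the Remak-like cells with 5 or more thinned reads of either gene, 1 cell of plate 1 held both (12.5% of the 8 Gfap cells and 5.56% of the 18 Synm cells). On plate 2, 2 cells held both (11.1% of the 18 Gfap cells and 8.33% of the 24 Synm cells). Of all Remak-like cells, 16.2% and 10% had 5 or more thinned Synm reads, so the shares among Gfap cells were close to those of the class. The small differences were not tested at these cell numbers. No cell with 5 or more thinned Nes reads was also a Gfap cell in either plate, out of 16 and 6 Remak-like Nes cells. Gfap cells were 7.21% and 7.5% of the class, so with this few Nes cells a count of 0 says little. By any read, 5 and 2 Remak-like cells had both Gfap and Nes.

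**Figure D2:**
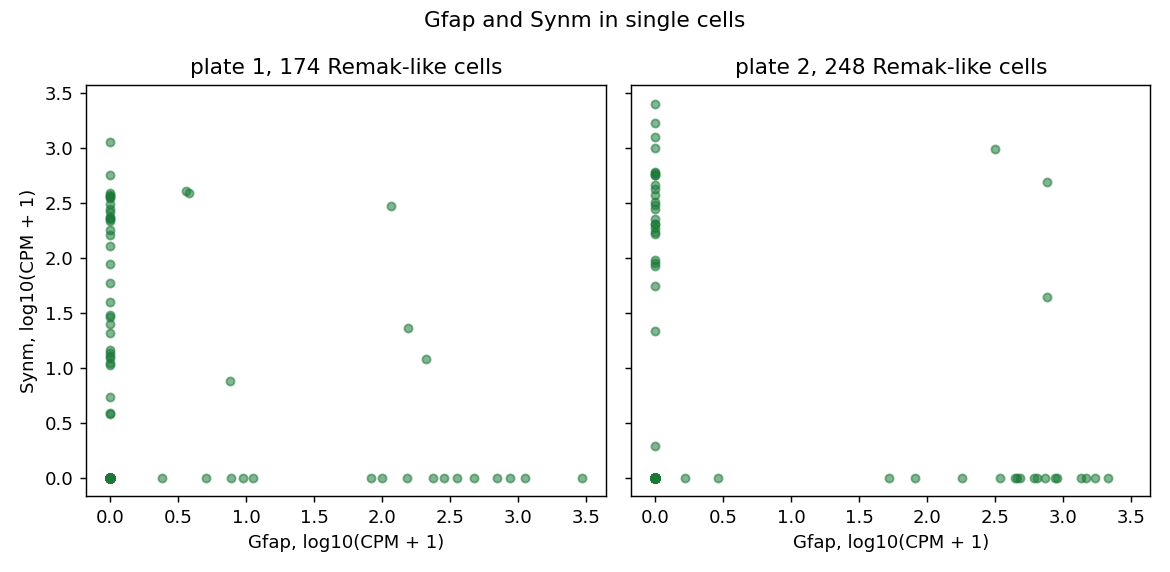
Gfap (x axis) and Synm (y axis) in single Remak-like cells, as log10(CPM + 1), with plate 1 (174 cells) on the left and plate 2 (248 cells) on the right. Most cells with either gene lie on 1 of the axes. A read of both is found in 6 cells of plate 1 and 3 of plate 2. This is 27.3% and 14.3% of the Gfap cells, beside 22.4% and 11.7% of all Remak-like cells with a Synm read.

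Markers of other cell types were compared between Gfap cells and the rest of the class. The median summed level of the neuronal, endothelial, pericyte and macrophage lists was 0 CPM both in cells with 5 or more thinned Gfap reads and in the others, on both plates. Macrophage markers reached 50 CPM in 2 of the 8 Gfap cells of plate 1 (mean sum 52.9 CPM, against 13.7 CPM in the others) and in 0 of the 18 of plate 2. The fibroblast list had medians of 410 and 25.3 CPM in Gfap cells against 551 and 31.4 CPM, and the perineurial list 356 and 87.2 CPM against 241 and 98.9 CPM. The summed nm(R)SC marker list, which does not contain Gfap, had a median of 4465 CPM in the 8 Gfap cells of plate 1 and 2776 CPM in the others, and 3407 and 2356 CPM on plate 2. Synm cells went the other way, with 2329 and 1716 CPM against 2998 and 2585 CPM, and their perineurial list was higher on both plates (medians of 312 and 398 CPM against 218 and 87 CPM). Over all Remak-like cells, 1 gene of this list, Itgb4, gave 306 of 327 CPM on plate 1 and 283 of 315 CPM on plate 2. Lypd2, Mpzl2 and Msln were at 0 there. In mSC-like cells Itgb4 stood at 166 and 224 CPM. Gfap cells also had more reads than the others (median 316509 against 245252 on plate 1 and 573051 against 441525 on plate 2). The part of depth and of these markers in the Gfap and Synm values was not tested.

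Nes lies on chromosome 3 from 87971078 to 87980451 (plus strand). It was the only cytoplasmic member tested that was higher in mSC-like cells on both plates, with 111 and 56.1 CPM (mean 83.6 ± 38.8, SD, n = 2) against 30.3 and 12.4 CPM in Remak-like cells (mean 21.3 ± 12.6). Both classes fell from plate 1 to plate 2. The fitted log2 ratio was 2.20 ± 0.58 (SE), which did not pass in edgeR (adjusted p = 0.105). DESeq2 called it (adjusted p = 0.00222), and by DESeq2 13.1% of the 13271 genes tested were called. Over the 12 alternatives the log2 ratio of Nes lay between 1.87 and 2.62 and the adjusted p between 0.00222 and 0.341, and DESeq2 was the only one to call it.

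The share of cells with Nes was higher in mSC-like cells on plate 1, while on plate 2 it depended on the read limit. At 5 or more thinned reads the share was 41.0% of 100 mSC-like cells of plate 1 (95% exact interval 31.3 to 51.3) and 14.4% of 111 Remak-like cells (8.47 to 22.4), and on plate 2 it was 8.33% of 72 (3.12 to 17.3) and 2.5% of 240 (0.923 to 5.36). The intervals of the classes were apart on plate 1 and overlapped on plate 2. With 1 or more thinned reads, Nes was in 48.0% of mSC-like and 22.5% of Remak-like cells of plate 1. On plate 2 these shares were close, at 8.33% and 7.08%. On plate 2 the reads were also more concentrated, with 89.4% of the mSC-like and 96.6% of the Remak-like Nes reads in the 5 strongest cells of each class, and a single Remak-like cell held 56.7%. Among mSC-like cells of plate 1, the Nes cells had a median of 9.03e+04 CPM over the 11 mSC markers and the others 6.06e+04 CPM, and on plate 2 the values were 9.30e+04 and 6.00e+04 CPM. The fibroblast list moved with Nes too: its median in Nes cells against the others was 272 against 60.2 CPM in mSC-like cells of plate 1, 74.9 against 11.7 CPM on plate 2, and in Remak-like cells 998 against 496 CPM and 1110 against 28.8 CPM. Nes cells of plate 2 were also few and deep. The 6 Remak-like ones had medians of 921203 reads and 3765 genes, against 445310 and 2275 in the 234 others. The 6 mSC-like ones had 814971 reads against 643525. On plate 1 median reads were close (243500 against 252735 in Remak-like and 236138 against 233072 in mSC-like cells). The part of the fibroblast list and of depth in the Nes values was not tested.

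Within Remak-like cells, nearly all Nes reads came from 1 of the 3 clusters. Cluster 1, led by Ednrb, Tagln2, S100a4 and several ribosomal protein genes, had 72 cells on plate 1 and 51 on plate 2, and stood at 72.1 and 72.9 CPM of Nes. Clusters 0 and 4, led by Apoe, Scn7a and Aldh1a1 among others, had 1.93 and 0.242 CPM together. Cluster 1 thus held 96.2% and 98.4% of the Remak-like Nes reads with 41.4% and 20.6% of the cells. Because clusters are built on the same cells, these differences are descriptions without a test, although Nes itself took no part in the clustering.

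Synm was arranged the other way round, and Gfap in part. Gfap had 12.3 and 1.36 CPM in cluster 1, against 120 and 58.4 CPM in cluster 0 and 8.5 and 83.7 CPM in cluster 4, so on plate 1 cluster 4 was below cluster 1 and the difference rested on cluster 0. Synm had 25.1 and 27.0 CPM against 60.9 and 94.9 CPM in clusters 0 and 4 together, while the share of cells with 5 or more thinned Synm reads was similar in cluster 1 (9.43% and 9.09%) and cluster 0 (12.5% and 9.85%). Lmna was higher in cluster 1 (735 and 1442 CPM against 361 and 390 CPM), and Vim was close (2692 and 2172 CPM against 2614 and 1926 CPM). By single reads, 11 of the 39 Remak-like Synm cells of plate 1 (28.2%) and 5 of the 22 Gfap cells (22.7%) also had a Nes read, beside 24.7% of the class. Cluster 1 had 7 of the 8 nm(R)SC markers at 10 CPM or more on both plates, and Sox10, S100b, Erbb3 and Egfl8 each reached that level there too. It also had 9 of the 11 mSC markers at that level on both plates, and mSC-like cluster 2 had 5 and 1 of the nm(R)SC markers. Such counts alone therefore do not separate the classes. The nm(R)SC markers summed to 2040 and 1928 CPM in cluster 1, below the 4577 and 3029 CPM of cluster 0 and the 4416 and 2298 CPM of cluster 4.

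Cells of cluster 1 differed in other measures as well. Their 6 fibroblast markers summed to 984 and 604 CPM, against 570 and 295 CPM in cluster 0 and 411 and 156 CPM in cluster 4, with Col1a1 (a collagen chain that SCs can also make) giving most of each sum. Only 2 of the 6 reached 10 CPM in cluster 1 on each plate, and Pi16 was at 0 on plate 1 and Lum on plate 2. The 5 cell-cycle markers summed to 77.7 and 8.78 CPM in cluster 1, against 24.6 and 4.3 CPM in cluster 0 and 14.6 and 2.71 CPM in cluster 4. The cells of cluster 1 had a median depth of 166702 reads on plate 1 and 190773 on plate 2, against 134541 and 472799 in clusters 0 and 4. The part of these in the Nes, Gfap and Lmna values was not tested.

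**Figure D3:**
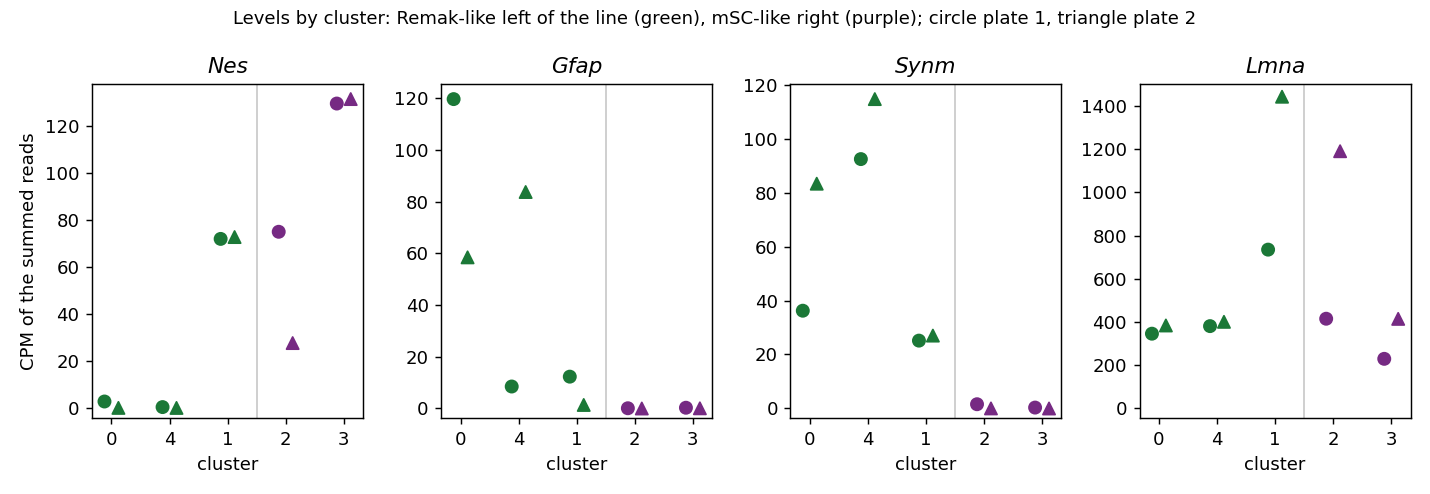
CPM of Nes, Gfap, Synm and Lmna in the reads summed over each cluster, with circles for plate 1 and triangles for plate 2; clusters 0, 4 and 1 (left of the line) are Remak-like and clusters 2 and 3 (right) mSC-like. Nes is near 0 in clusters 0 and 4 and 72.1 and 72.9 CPM in cluster 1, where Gfap is at 12.3 and 1.36 CPM.

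The mSC-like clusters differed in Nes and Lmna. Cluster 3 (91 and 19 cells), led by Mfap5, Ogn and Fam178b among others, had 130 and 132 CPM of Nes and 230 and 414 CPM of Lmna. Cluster 2 (60 and 54 cells), led by Emid1, Pllp and Ncmap, had 75.2 and 27.8 CPM of Nes and 415 and 1190 CPM of Lmna. Remak-like cluster 1, at 72.1 and 72.9 CPM of Nes, was close to cluster 2 on plate 1 and above it on plate 2. The class difference in Nes thus did not hold for each pair of clusters. Cluster 3 was the higher for Nes and the lower for Lmna on each plate, and the clusters were close for Vim (1203 and 816 CPM in cluster 3, 1183 and 670 CPM in cluster 2).

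Vim lies on chromosome 2 from 13573927 to 13582826 (plus strand) and had the most reads of the members, with at least 1 read in all 674 kept cells. Its levels were 2645 and 1967 CPM in Remak-like cells (mean 2306 ± 479, SD, n = 2 plates) and 1196 and 710 CPM in mSC-like cells (mean 953 ± 344). Remak-like cells had 2.21 times the mSC-like level on plate 1 and 2.77 times on plate 2. The fitted log2 ratio was -1.14 ± 0.33 (SE) and did not pass in edgeR (adjusted p = 0.145, and between 0.0189 and 0.447 over the alternatives, the lowest from DESeq2, which was the only one to call it). On plate 1 the median Remak-like cell had 2457 CPM and the median mSC-like cell 1202 CPM, and on plate 2 they had 1707 and 519 CPM.

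Cells of plate 2 varied more in Vim. The SD over cells of log2(CPM + 1) was 0.89 in Remak-like and 1.48 in mSC-like cells of plate 1, and 2.68 and 2.95 on plate 2, where the lower quartile of mSC-like cells was 39.2 CPM. The lowest Remak-like cell had 228 CPM on plate 1 and 3.98 CPM on plate 2. The share of cells with 5 or more thinned Vim reads was 100% and 85.0% in Remak-like cells and 94.0% and 73.6% in mSC-like cells of plates 1 and 2. All 50 cells of plate 2 that were discarded for too few genes also had a Vim read, so a single Vim read does not tell cells apart here.

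**Figure D4:**
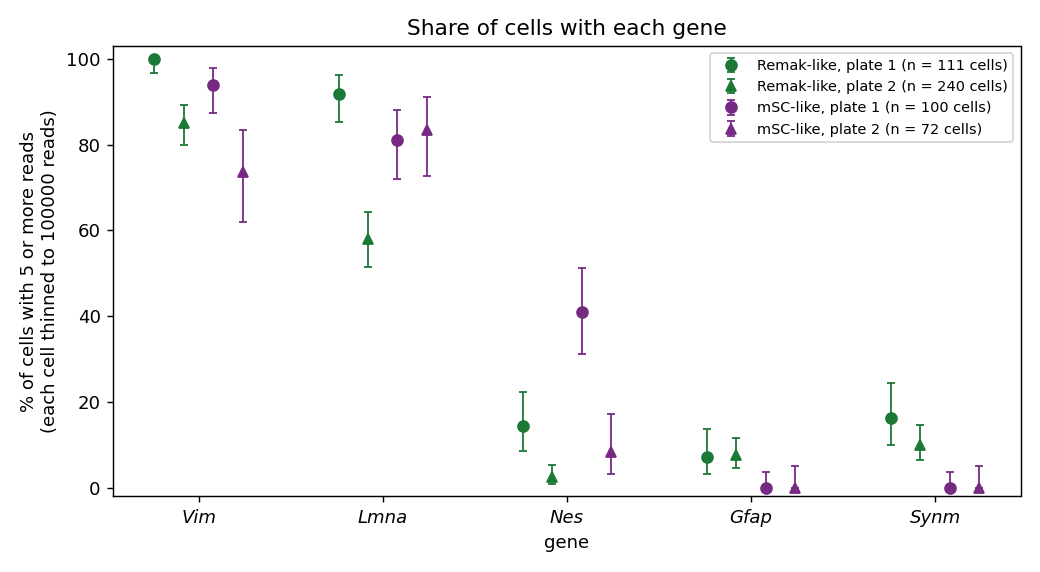
Share of cells (y axis, percent) with 5 or more reads of each gene after thinning to 100000 reads, by class and plate; bars are 95% exact binomial intervals, which cover counting error only. Gfap is at 7.21% and 7.5% and Synm at 16.2% and 10% of Remak-like cells with no such mSC-like cell, and Nes is higher in mSC-like cells.

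Lmna lies on chromosome 3 from 88480147 to 88509956 (minus strand) and was read in 93.5% and 89.5% of the kept cells of plates 1 and 2. Its levels were 512 and 566 CPM in Remak-like cells (mean 539 ± 38.1, SD, n = 2 plates) and 293 and 978 CPM in mSC-like cells (mean 636 ± 484). The plates disagreed in direction: the log2 ratio of mSC-like over Remak-like (with 1 CPM added) was -0.80 on plate 1 and 0.79 on plate 2. The fitted log2 ratio was 0.17 ± 0.44 (SE), with an edgeR adjusted p of 0.969, so no difference between classes was seen beyond the spread between plates. The mSC-like sums of plate 1 held 91 cells of cluster 3 and 60 of cluster 2, and those of plate 2 held 19 and 54. Lmna was lower in cluster 3 than in cluster 2 on each plate (as given above), and each of the 2 clusters was higher on plate 2. At 5 or more thinned reads the share of cells was 91.9% and 57.9% in Remak-like cells and 81.0% and 83.3% in mSC-like cells.

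Compared per kilobase of exon, which allows levels to be compared between genes, Vim stood first in 3 of the 4 sums. In Remak-like cells the order was Vim (558 and 415 CPM per kb on plates 1 and 2), Lmna (87.7 and 97.0), Gfap (11.2 and 13.4), Synm (5.86 and 10.5) and Nes (4.72 and 1.93). Vim was 6.36 times Lmna on plate 1 and 4.28 times on plate 2. Gfap and Synm, neighbours in this order, were closer (12.3 ± 1.59 and 8.19 ± 3.31 CPM per kb, SD, n = 2), and with 2 plates the smallest p of an exact permutation test exceeds the usual limit, so they were not ranked further. Their distance depended on the length used. Per kilobase of the longest transcript, Gfap stood at 17.8 and 21.4 CPM and Synm at 5.94 and 10.7 CPM on plates 1 and 2. In mSC-like cells Vim (252 and 150 CPM per kb) and Lmna (50.2 and 167) changed places on plate 2, and Nes followed (17.3 and 8.75).

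Between plates, no member differed by more than 2-fold in the same direction in both classes. Nes came closest (log2 of plate 2 over plate 1 -1.22 in Remak-like and -0.97 in mSC-like cells), and the change in Lmna (1.73) was seen in mSC-like cells, with 0.14 in Remak-like cells. Of genes at 10 CPM or more, 33.5% in Remak-like and 38.5% in mSC-like cells were over 2-fold apart between plates when each class was taken alone. These plate ratios have no replicates.

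The neuronal filament genes were nearly absent. Prph (chromosome 15, 99055174 to 99058978) had no read in any of the 768 cells. Nefl (chromosome 14, 68083863 to 68089095) had 1 read in 1 Remak-like cell of each plate, and Nefm (chromosome 14, 68082590 to 68124846, whose longer form overlaps Nefl on the other strand) had 1 read in 1 Remak-like cell of plate 2. After thinning, 0 of 111 and 0 of 240 Remak-like cells and 0 of 100 and 0 of 72 mSC-like cells had a Prph read, which allows shares of up to 2.70%, 1.25%, 3% and 4.17%. None of the 3 genes passed the filter for the test between classes, and no fold is given. Of the 8 neuronal markers, Rbfox3 was at 0 in both classes on both plates, and the list summed to 55.1 and 16.8 CPM in mSC-like and 84.2 and 85.1 CPM in Remak-like cells, with Uchl1 or Tubb3 the highest.

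**Figure D5:**
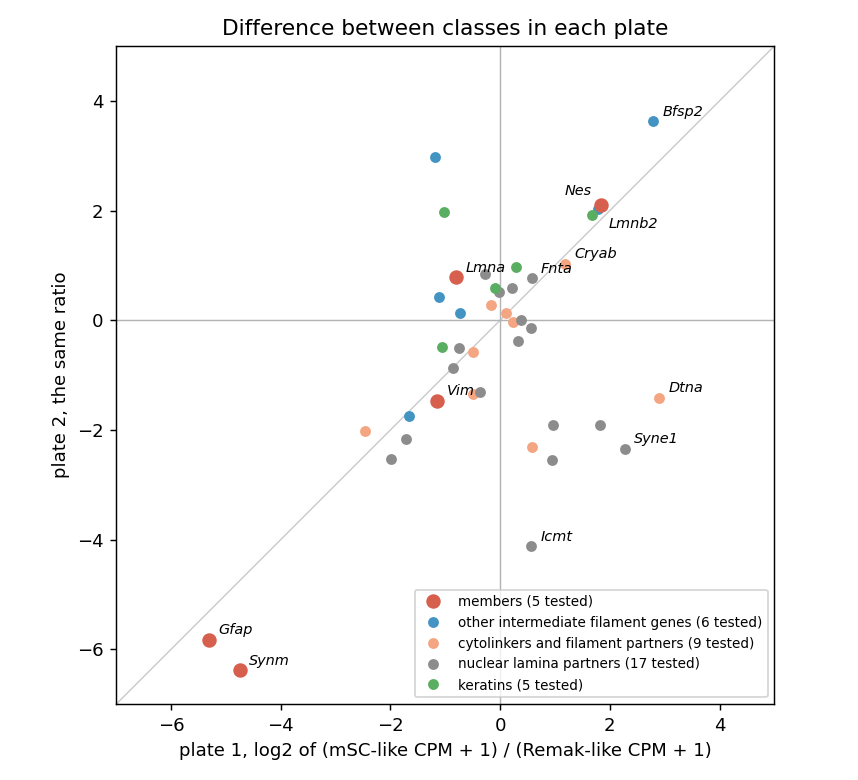
Log2 ratio of mSC-like over Remak-like CPM (1 CPM added to both) on plate 1 (x axis) and plate 2 (y axis) for the tested genes of the 5 lists; the diagonal marks equal ratios. Gfap and Synm lie far down the diagonal, Nes and Vim near it with opposite signs, and Lmna is at -0.80 on plate 1 and 0.79 on plate 2.

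Other filament genes of the family were mostly low. Of 10 further genes of classes III to VI and of orphan or lens types, 6 had enough reads for the test and none passed (median log2 ratio 1.03). Lmnb2 (lamin B2) had 35.6 and 30.9 CPM in mSC-like cells against 9.68 and 6.79 CPM in Remak-like cells, with a log2 ratio of 2.21 ± 0.98 (SE, edgeR adjusted p = 0.407). Of its 1044 Remak-like reads of plate 2, 965 were in 1 cell. Iffo1 had 9.10 and 20.7 CPM against 15.8 and 18.8 CPM (log2 ratio -0.15 ± 1.12). Des (desmin) and Ina (α-internexin) had at most 3 reads in any of the 4 sums. Nefh, the heavy neurofilament gene, had 104 of its 106 mSC-like reads of plate 1 in 1 cell. Bfsp2, a filament gene known from the eye lens and named here after its values were seen, had 203 and 618 reads in mSC-like and 3 and 0 in Remak-like cells (edgeR adjusted p = 0.267, DESeq2 5.77e-05). The 618 reads of plate 2 came from 2 of 73 cells, 362 of them from 1.

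Keratins, the filament genes of epithelia, were mostly close to background, apart from Krt10. Of 50 listed, 20 had any read in the sums, 5 could be tested and none passed. Krt10 was the highest, with 21.8 and 17 CPM in Remak-like and 20.5 and 26.2 CPM in mSC-like cells (log2 ratio 0.44 ± 0.95, SE), followed by Krt87 (1.26 and 0.169 CPM against 6.23 and 3.41 CPM). The median over the 5 tested keratins was 3.29, from genes with few reads.

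Genes for proteins that link filaments to junctions, membranes or each other were mostly read in both classes, except that Dsp, Evpl and Eppk1 had at most 2 reads in either mSC-like sum. Of 12 listed, 9 were tested and none passed (median log2 ratio -0.36, with 4 above 0). Cryab (αB-crystallin, a small heat shock protein that binds filaments) was the most abundant, with 4574 and 3205 CPM in mSC-like and 2011 and 1568 CPM in Remak-like cells, and a log2 ratio of 1.28 ± 0.33 that did not pass (edgeR adjusted p = 0.0918). With RLE size factors in edgeR its adjusted p was 0.0463, and with DESeq2 0.00172. Dmd (dystrophin and its short forms, which anchor the cytoskeleton at the membrane) followed with 490 and 271 CPM against 453 and 246 CPM (log2 ratio 0.30 ± 0.34).

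Among 17 partners of the nuclear lamina, all were tested and none passed (median log2 ratio -0.30, with 8 above 0). Fnta, a subunit of the enzyme that adds a farnesyl group to prelamin A, had 551 and 733 CPM in mSC-like and 370 and 429 CPM in Remak-like cells (log2 ratio 0.85 ± 0.34, edgeR adjusted p = 0.328). Banf1, a chromatin protein that binds lamina proteins, had 292 and 177 CPM against 252 and 118 CPM (log2 ratio 0.57 ± 0.37). Counts over a list are given beside the background of 2.98% of all genes called.

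Vim and Lmna were weakly correlated across cells. Pearson's r of their log levels was 0.030 over the 174 Remak-like cells of plate 1 and 0.088 over the 248 of plate 2, and 0.13 and 0.27 over the 151 and 73 mSC-like cells. For genes outside the lists that were read in 25% or more of the Remak-like cells of each plate (2890 genes), the highest r with Vim, taking the lower plate, was found for S100a11 (0.30 and 0.24), Rpl28 (0.26 and 0.22) and Lgals3 (0.24 and 0.22). For Lmna it was Rpl4 (0.27 and 0.27), Atp5l (0.36 and 0.26) and Rpl23 (0.39 and 0.25). All of these are weak, and cells share depth and plate. The other members were read in too few cells for such a comparison.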

How the data were processed

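Single SCs were sequenced on 2 plates. The authors deposited raw counts of reads per gene and cell, not normalized. Per the labels the reads were processed with bcl2fastq, STAR 2.6.1c and featureCounts against GRCm38.p5, while the study's methods name another STAR version and a human build. Strand and multi-overlap settings are not given in the sources used here. Of 25700 identifiers, 25664 were found in GENCODE M21, all 768 columns matched a cell title, and 0 did not. Plate 1 held 74280540 reads and plate 2 209404659.

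The members, gene lists and tests were chosen with earlier results of these data known. Cells with 1500 or more genes were kept (340 and 334), variable genes were integrated over plates (12 dimensions, resolution 0.5) in Seurat 5.3.0 under R 4.3.3, and clusters were named from 19 markers, with no doublet caller since wells were sorted singly. Median reads per kept cell were 158689 and 452484. The 97 listed filament, linker and lamina genes (members included) took no part in clustering. Other genes were split at random in 2 parts, each tested in classes built from the other part, which matched the classes used here in 96.8% of 646 cells. No cell annotation of the study was used, so the classes are rebuilt. Counts were summed per plate and class (4 sums) and tested with edgeR 4.0.16 (quasi-likelihood, TMM, filterByExpr with a minimum of 10, plate as block, 1 residual degree of freedom), with Benjamini-Hochberg adjustment over all 13271 genes and a limit of 0.05. The numbers pair the sums because both classes of a plate came from the same mice (r of deviations 0.21 over 8036 genes). SEs were computed as the ratio over the root of its F statistic, and ratios within a plate added 1 CPM. CPM divides by the reads of the sum. Cells at 100000 or more reads were thinned to that number for shares of cells. Intervals are exact (Clopper-Pearson or conditional binomial, 95%), and 0 cells allow up to 3 in the total. DESeq2 1.42.0, other scalings, filters and clusterings were tried. The fit was tested on simulated data. Named genes were all 8 members, any other listed gene that passed the test (none did), the 2 highest by mean CPM of each other list, and the 3 most like Vim and Lmna. Promoters came from RefSeq (7 entries for 6 of the 8 members), and only bases before the start were used. Python 3 scripts with SciPy and matplotlib gave the other values. Some marker genes are not reported here.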

Additional observations from a re-analysis of the deposited data

Results flagged for a closer look

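The unnamed cluster, led by Hmgn2, Hmgb2 and Top2a among other cell-cycle genes, took no part in the comparison of the listed genes between classes. Its 15 cells of plate 1 had levels of 3 lamin genes above those of both classes of that plate. Lmna stood at 750.5 CPM (3480 reads), against 512 in Remak-like and 293 in mSC-like cells. Remak-like cluster 1 of that plate was close to it, at 735 CPM, so the Lmna level was not particular to the unnamed cluster. Lmnb1 stood at 69.2 CPM (321 reads), against 3.45 and 0.415 CPM, and was read in 13 of the 15 cells. Lmnb2 stood at 255 CPM (1184 reads), against 9.68 and 35.6 CPM. A single cell held 614 of these reads (51.9%). The 13 cells of plate 2 in this cluster had a median of 4081 reads and no read of Lmnb1 or Lmnb2, so at this depth the levels could not be compared. With 2 plates, no group was large enough for a check of single outlying samples.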

How the results depend on the processing

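The number of members called higher in Remak-like cells was 2 and stayed 2 or rose to 3 (DESeq2) in 6 alternatives. It was 1 with a cell filter of 1000 genes, without integration, at resolution 0.3, without the replicate block and with the unnamed cluster counted as Remak-like, and 0 with a cell filter of 2500 genes. The number called higher in mSC-like cells was 0 and became 1 with DESeq2 only, where Vim was also called. The block changed 1 call, that of Synm. Over all genes 201 were called without the block against 396 with it, 167 with the 2500 gene filter, 248 at resolution 0.3, 717 on thinned cells and 1737 with DESeq2. Each of the 5 tested members kept the sign of its fitted ratio in all 12 alternatives. Without either replicate the ratio within the remaining plate (1 CPM added, no test) was -5.82 and -5.30 for Gfap, -6.38 and -4.75 for Synm, -1.47 and -1.14 for Vim, 2.09 and 1.84 for Nes and 0.79 and -0.80 for Lmna. The number of members over 2-fold apart between plates in both classes was 0 and became 1 without the cell with most reads of each gene. The number of members in 5% or more of the cells of each plate was 4 in Remak-like and 3 in mSC-like cells, and ranged over 4 to 5 and stayed 3 without either replicate. Vim over Lmna per kb was 5.32 in Remak-like and 2.96 in mSC-like cells, with 4.28 to 6.36 and 0.894 to 5.02 without either replicate. The cause of these changes was not tested. With 2 plates and rebuilt classes, a p near the limit should be read with its range, and plate depth limits what can be said of genes with few reads.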
